A study of Mus musculus with 6 samples.

Results

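The 41 genes described here encode the enzymes and transporters of glycolysis, the enzymes that make and break down glycogen, and the oxygen-sensing system with its best known targets. They were measured in neurospheres, floating clusters of neural precursor cells. Members were found on the array by gene symbol, taking gene probes whose platform annotation gives a single symbol from the list. This gave 43 probes for 37 of the 41 genes, out of 34847 gene probes tested and 18010 genes with a single-symbol probe. The remaining 4 genes, Gpi1, Aldoa, Eno1 and Ankrd37, had no such probe, so no level is given for them, and they enter only the search of promoter sequences.

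The anti-miR-335 group held 3 cultures that received an antisense oligonucleotide with 2'-O-methyl bases directed at the microRNA miR-335, and the control group 3 cultures that received a nonsense oligonucleotide of the same chemistry, named for EGFP. All 6 came from C57BL/6 cortical neuroepithelium at embryonic day 12.5, dissected from the dorsal telencephalic vesicles. They grew without serum in medium holding LIF at 0.15 ng/ml and the growth factors EGF and bFGF at 20 ng/ml each, with insulin, transferrin, selenium, heparin and progesterone. The labels give the length of the treatment as 24 with no unit, and they call the replicates independent without saying what was repeated, so the p-values measure only the spread between these 6 samples. Whether miR-335 was in fact blocked was not checked, since no microRNA was analysed here. The mature arms of miR-335 are encoded on mouse chromosome 6 (GRCm38.p6, plus strand), the 5p arm at chr6:30741314-30741336 and the 3p arm at chr6:30741354-30741375. The sample titles do not say which arm the antisense oligonucleotide pairs with. Both are shown from RefSeq because the treatment is named for miR-335, with the seed, bases 2 to 8, in capitals.
mmu-miR-335-5p: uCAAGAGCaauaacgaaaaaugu
mmu-miR-335-3p: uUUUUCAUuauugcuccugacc

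Glycolysis splits glucose into pyruvate, which is either reduced to lactate and exported or carried into mitochondria and oxidised by the pyruvate dehydrogenase complex. When oxygen falls, prolyl hydroxylases stop marking the HIF alpha subunits for destruction, and the stabilised HIF factors raise the transcription of glucose transporters, glycolytic enzymes, pyruvate dehydrogenase kinases and angiogenic signals. Neural precursors are known for a high glycolytic flux, and in the brain glycogen is held mainly by astroglia.

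RNA was read on 6 single-colour CodeLink arrays, 1 per culture. An intensity is a spot's brightness divided by the median of its array, and it cannot be compared between probes. A probe counts as above background where its intensity exceeded the array's negative control spots by a limit that lay between 0.492 and 0.692. The neural precursor markers Nes, Sox2, Pax6, Vim, Fabp7 and Msi1 were above background on all arrays, while of the measured microglial (4 of 6 listed) and erythroid (2 of 5 listed) markers none was above it on 3 or more arrays. Differences are log2 values, anti-miR-335 minus control, with the standard error (SE) of limma, a linear model fitted to all 34847 probes. P-values are two-sided and adjusted by Benjamini-Hochberg over those probes, with a threshold of 0.05. Over all of them 0 passed by limma, while 3162 (9.07%) had an unadjusted p under 0.05. Without control replicate 1, the array that stands apart in this series, 1100 (3.17%) passed. Arrays of whole cultures cannot tell fewer cells of a type from less RNA per cell.

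None of the 37 measured members passed the test, against 0.0% of all genes in either direction. Each gene is represented by its brightest probe. The adjusted p by limma lay between 0.450 for Pygb, the brain form of glycogen phosphorylase, and 0.998 for the pyruvate dehydrogenase kinase gene Pdk2. At an unadjusted p under 0.05, 3 members lay higher in the anti-miR-335 group (8.11%, against 6.63% of all genes), namely Pygb, Vegfa and Egln1, and 1 was lower (2.7%, against 3.32% of all genes), namely Pfkfb4. Group values did not overlap for Pygb and Tpi1 on the higher side (5.41% of members, 9.35% of genes) and for Pfkfb4 and Gapdh on the lower side (5.41% of members, 6.21% of genes). These shares lie near or below the background and are no result about the list. The 37 members had a median log2 difference of 0.07, 24 positive and 13 negative, beside a median of 0.05 over all 18010 genes, of which 57.4% were positive. Of the 37, 32 were above background on all 6 arrays, with a median of 0.09 and 71.9% positive. All 12477 genes above background on at least 3 arrays had a median of 0.07, with 62.5% positive. The other 5 members, Slc2a1, Slc2a3, Pdha1, Pygl and Epas1, were above background on at most 2 arrays.

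**Figure D1:**
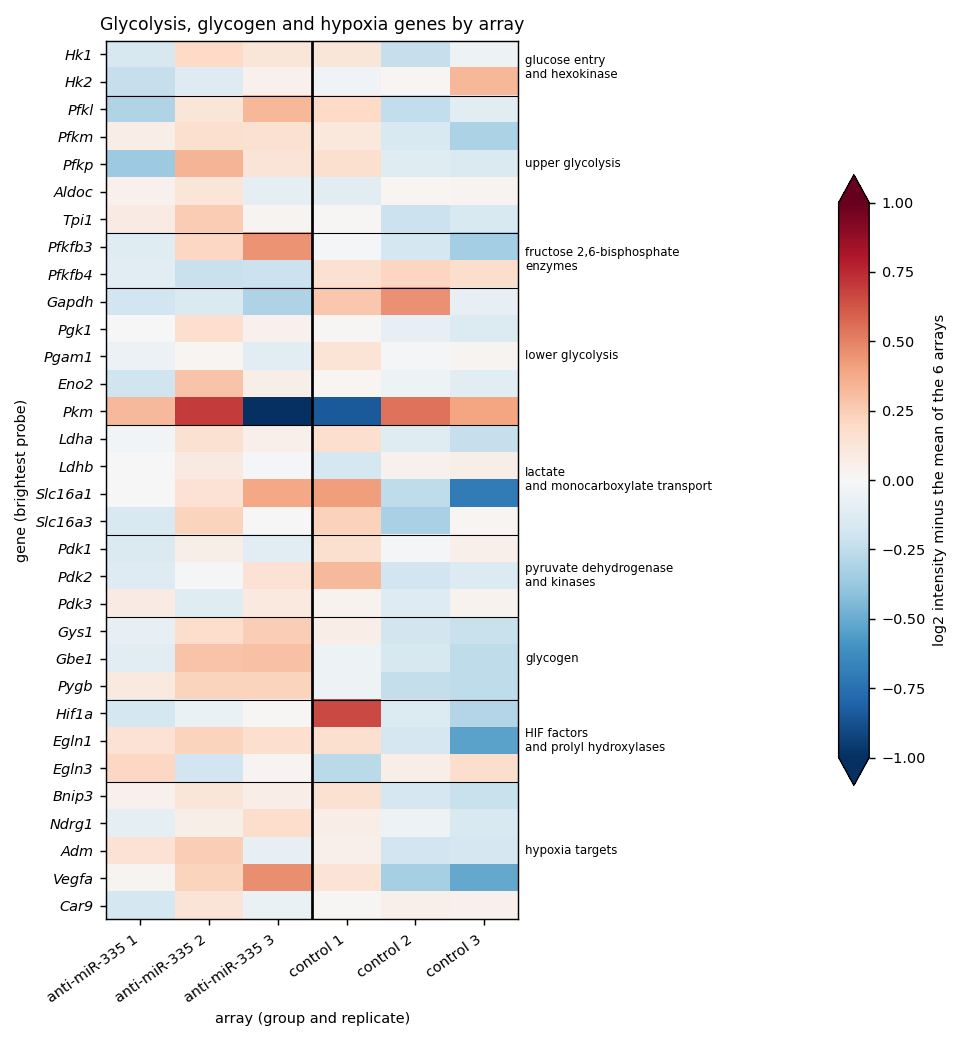
Each row is 1 of the 32 members above background and each column 1 array, the 3 anti-miR-335 arrays left of the 3 control arrays. Colour gives the log2 intensity minus the gene's mean over the 6 arrays, with values beyond 1 in either direction drawn at the end of the scale, and lines separate the roles. Control replicate 1 lies above both other controls in 24 of the 32 rows, and Pkm is low on anti-miR-335 replicate 3 and control replicate 1.

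Glycogen enzymes were the role with the highest median, 0.27, and all 4 measured members had a positive difference, but none passed the test. Of these, 3 were above background on 3 or more arrays. The other, Pygl, was not, its probes differed in sign, and it gives no direction. Pygb, which releases glucose units from glycogen, had intensities of 72.4, 79.2 and 79.1 on the anti-miR-335 arrays, against 65.3, 57.5 and 56.8 on the control arrays. Every anti-miR-335 value lay above every control value, the highest control being control replicate 1. The means were 76.9 ± 3.89 and 59.9 ± 4.72 (SD, n = 3 each), a log2 difference of 0.36 ± 0.11 (SE), or 1.29-fold, with an adjusted p of 0.450 by limma.

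Gys1 encodes the glycogen synthase of tissues other than liver. It lay at 8.21, 9.81 and 10.3 on the anti-miR-335 arrays, against 9.07, 7.63 and 7.42 on the control arrays. The groups overlapped because anti-miR-335 replicate 1 lay below control replicate 1, and the log2 difference was 0.23 ± 0.13 (SE, adjusted p = 0.624 by limma). Without the replicate 1 pair it was 0.42, with an adjusted p of 0.0386, and without the replicate 3 pair it was 0.11 (adjusted p = 0.996). Gbe1, the enzyme that adds the branches to glycogen, showed the same arrangement, with 1.41, 1.86 and 1.87 on the anti-miR-335 arrays against 1.476, 1.363 and 1.282 on the control arrays (log2 difference 0.31 ± 0.18, adjusted p = 0.639). Pygl, the liver form of glycogen phosphorylase, was above background on 0 of 3 anti-miR-335 arrays and 1 of 3 control arrays on its brighter probe and on none on the other, so no fold is given.

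The further pathway genes come from separate lists, which were also written with earlier results of these arrays known. Among the glycogen genes, 17 of 21 were measured, 0 passed in either direction, and 11 were positive and 6 negative. Of the 17, 13 were above background on 3 or more arrays. The smallest p belonged to Ugp2, which makes the UDP-glucose that glycogen synthase uses. It lay at 39.7, 47.6 and 49.3 on the anti-miR-335 arrays, against 47.2, 32.5 and 25.8 on the control arrays (log2 difference 0.41 ± 0.19, adjusted p = 0.569). Here control replicate 1 stood among the anti-miR-335 values, and without it the difference was 0.65 (adjusted p = 0.0351). Phkg1, a catalytic subunit of phosphorylase kinase named after its values were seen, also passed without that array (0.48, adjusted p = 0.0337), against 0.24 with it. Ppp1r3c, a glycogen-targeting subunit of protein phosphatase 1, differed by 0.49 ± 0.25, Pgm2 by 0.46 ± 0.25 and Pgm1 by 0.17 ± 0.10 (log2, SE), Pgm1 and Pgm2 being phosphoglucomutases. The marker lists of astroglia, neurons and precursors also leaned higher. Those of the oligodendrocyte lineage (1 positive, 4 negative) and endothelium (2 positive, 3 negative) held more negative differences. In the former, Sox10 was positive (0.38 ± 0.13, log2, SE), while Olig1, Olig2 and Mbp differed by less than their SE. Of the 5 endothelial markers, 2 were above background on 3 or more arrays. These were Tek (0.40) and Kdr (-0.27), which lay in opposite directions. No marker gene passed the test. Of the 6 astroglial markers, all above background, 5 were positive and S100b was negative (-0.10), and their summed intensity lay between 182 and 207 on the anti-miR-335 arrays and between 160.2 and 199.7 on the control arrays. All 5 neuronal markers were positive, 3 of them above background, with sums of 9.08 to 12.6 on the anti-miR-335 arrays and 6.82 to 10.6 on the control arrays. Of the 6 precursor markers 4 were positive, while Nes (-0.15) and Msi1 (-0.20) were negative. Their sums were 254 to 287 on the anti-miR-335 arrays and 239 to 242 on the control arrays. Such sums follow their brightest probes and do not measure a cell type. For the precursors these were Vim and Fabp7, the latter with means of 110 (anti-miR-335) and 90.1 (control). The markers with the largest differences above background were Gja1 (1.13 ± 0.24), the neuronal Dcx (1.02 ± 0.18) and Aqp4 (0.69 ± 0.11), with adjusted p of 0.374, 0.333 and 0.333 by limma. Without control replicate 1 these 3 passed (adjusted p = 0.0469, 0.0252 and 0.0159), as did Slc1a3 and Pax6. The part of any of these cells in the glycogen values was not tested.

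**Figure D2:**
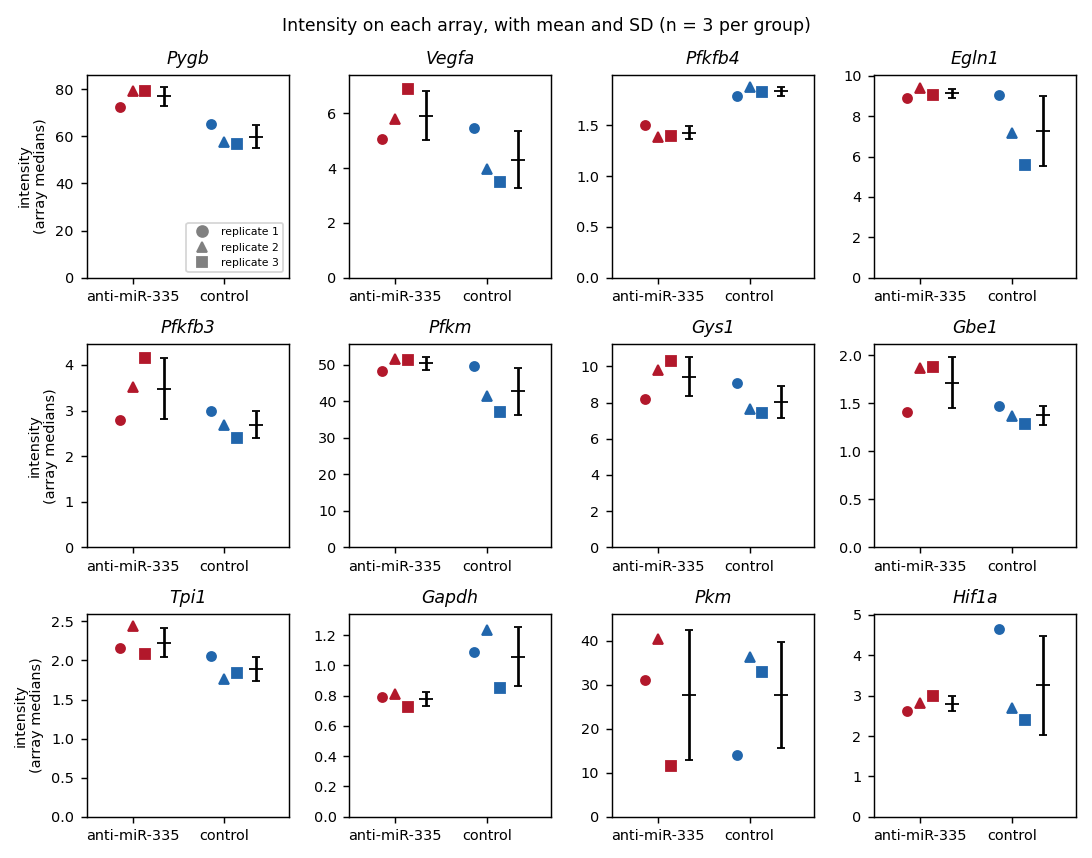
Intensity in units of the array median for 12 members, with 1 point per array, the anti-miR-335 group left of the control group, and the mean and SD (n = 3) to the right of each group. Points are told apart by replicate. Pygb, Tpi1, Pfkfb4 and Gapdh have groups that do not overlap, and in Vegfa, Egln1, Pfkm and Gys1 control replicate 1 lies at the height of the anti-miR-335 arrays.

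Hypoxia targets had a median of 0.16 over 5 measured members, 4 positive and 1 negative, and 0 passed. Vegfa encodes the growth factor that draws in blood vessels. It lay at 5.07, 5.80 and 6.88 on the anti-miR-335 arrays, against 5.47, 3.97 and 3.49 on the control arrays. Control replicates 2 and 3 lay below all anti-miR-335 arrays, and control replicate 1 lay within the anti-miR-335 range. The log2 difference was 0.47 ± 0.18 (SE), or 1.39-fold, with an adjusted p of 0.494 by limma. Without control replicate 1 it was 0.66, with an adjusted p of 0.0358, without control replicate 3 it was 0.33 (adjusted p = 0.777), and without the replicate 3 pair it was 0.22 (adjusted p = 0.996).

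Bnip3, a mitochondrial protein that promotes mitophagy, lay at 18.7, 19.7 and 18.9 on the anti-miR-335 arrays, against 20.1, 16.1 and 15.5 on the control arrays (log2 difference 0.16 ± 0.12). Adm, the vasodilator peptide adrenomedullin, lay at 11.98, 12.86 and 10.21 against 11.2, 9.46 and 9.63 (0.21 ± 0.12). In both, control replicates 2 and 3 were the lowest arrays. Ndrg1, a stress-responsive gene, differed by 0.09 ± 0.14 and Car9, a membrane carbonic anhydrase, by -0.07 ± 0.17. Car9 spanned 1.25 to 1.54 on the anti-miR-335 arrays and 1.42 to 1.46 on the control arrays, and its difference was smaller than its SE.

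Among the oxygen sensors and HIF factors, Egln1, the main HIF prolyl hydroxylase and itself a HIF target, lay at 8.93, 9.39 and 9.06 on the anti-miR-335 arrays, against 9.03, 7.18 and 5.57 on the control arrays. The anti-miR-335 arrays lay close together (SD 0.239) and the control arrays far apart (SD 1.73). The log2 difference was 0.36 ± 0.16 (SE, adjusted p = 0.544 by limma), and 0.53 with an adjusted p of 0.0406 without control replicate 1. Without control replicate 3, the lowest array, it was 0.18 (adjusted p = 0.839). Vegfa and Egln1 were the 2 of 37 members that passed without control replicate 1 (5.41%, both higher). Of all genes, 3.49% passed higher and 0.637% lower in that fit. Egln3, a second hydroxylase, differed by 0.03 ± 0.15. Hif1a, the alpha subunit that oxygen controls, lay at 2.62, 2.82 and 2.98 on the anti-miR-335 arrays, against 4.66, 2.69 and 2.40 on the control arrays. A single array, control replicate 1, carried the high control mean of 3.25 ± 1.23, and the log2 difference of -0.15 ± 0.22 became 0.14 without it. Epas1, the alpha subunit of HIF2, was above background on 0 of 3 anti-miR-335 arrays and 1 of 3 control arrays.

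Of 28 further hypoxia genes on a separate list, 24 were measured, with 12 positive, 12 negative and 0 past the test. Of the 24, 21 were above background on 3 or more arrays. Bhlhe40, a repressor induced by hypoxia and by many other stimuli, lay at 19.7, 28.9 and 28.1 on the anti-miR-335 arrays, against 22.2, 13.1 and 10.2 on the control arrays (log2 difference 0.81 ± 0.25, adjusted p = 0.450), and without control replicate 1 it differed by 1.13 (adjusted p = 0.0193). Mxi1, a Myc antagonist, differed by 0.21 ± 0.10, the mitochondrial protein gene Higd1a by 0.21 ± 0.10 and Vhl, whose product recognises the hydroxylated HIF subunits, by 0.30 ± 0.15. In Mxi1, Higd1a and Vhl, named for their small p, the groups did not overlap. On the higher side this also held for 9.35% of all genes.

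Phosphofructokinase commits glucose to glycolysis, and its activator fructose 2,6-bisphosphate is set by the PFKFB enzymes. The 2 measured PFKFB members lay in opposite directions. Pfkfb3, whose kinase activity is strongest, lay at 2.80, 3.51 and 4.15 on the anti-miR-335 arrays, against 2.99, 2.69 and 2.40 on the control arrays, a log2 difference of 0.36 ± 0.17 (SE, adjusted p = 0.557 by limma). Anti-miR-335 replicate 1 overlapped the controls. Pfkfb4 lay at 1.5, 1.38 and 1.39 on the anti-miR-335 arrays, against 1.79, 1.88 and 1.83 on the control arrays. Its groups were tight and apart, with means of 1.43 ± 0.0647 and 1.83 ± 0.0432 (SD, n = 3 each) and a log2 difference of -0.36 ± 0.15 (SE, adjusted p = 0.527). Both are known HIF targets, as are Vegfa and Egln1. Pfkfb2, taken from the further list, lay at 9.17, 8.85 and 10.2 against 9.91, 6.70 and 5.48 (0.39 ± 0.19, adjusted p = 0.571), and without control replicate 1 it differed by 0.63 (adjusted p = 0.0259).

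The 5 measured members of upper glycolysis all had positive differences, from 0.05 to 0.25, and 0 passed. Pfkm, the muscle-type phosphofructokinase, lay at 48.2, 51.5 and 51.2 on the anti-miR-335 arrays, against 49.5, 41.4 and 37.0 on the control arrays (log2 difference 0.25 ± 0.12, adjusted p = 0.590). Its platelet-type counterpart Pfkp lay at 4.26, 6.92 and 5.97 against 6.09, 5.04 and 4.94, and the liver type Pfkl at 3.21, 4.32 and 4.98 against 4.56, 3.34 and 3.69. Both had anti-miR-335 replicate 1 as their lowest array, and differed by 0.07 ± 0.17 and 0.10 ± 0.18. Aldoc, the brain aldolase and an astroglial gene, differed by 0.05 ± 0.12. Tpi1, triose phosphate isomerase, lay at 2.16, 2.44 and 2.08 on the anti-miR-335 arrays, against 2.06, 1.76 and 1.84 on the control arrays (0.24 ± 0.15, adjusted p = 0.666). A second Tpi1 probe gave -0.09 ± 0.16, so the probes disagree in direction.

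Glucose enters through the SLC2A transporters and is trapped by hexokinase. Slc2a1 and Slc2a3, the glucose transporters GLUT1 and GLUT3, were not above background on any array. Slc2a1 lay at 0.5311, 0.1596 and 0.2988 on the anti-miR-335 arrays, against 0.485, 0.497 and 0.235 on the control arrays, and a difference between such values gives no direction for either gene. Hk1, the hexokinase found in most tissues, differed by 0.10 ± 0.13. Hk2, the inducible form and a HIF target, lay at 1.64, 1.76 and 1.99 on the anti-miR-335 arrays, against 1.88, 1.96 and 2.43 on the control arrays (log2 difference -0.21 ± 0.16, adjusted p = 0.728). Its direction is opposite to that of Vegfa, and its groups overlapped.

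Lower glycolysis held 2 positive and 3 negative members, none past the test. Pgk1, phosphoglycerate kinase, differed by 0.14 ± 0.10, the neuronal enolase gene Eno2 by 0.10 ± 0.16 and Pgam1, phosphoglycerate mutase, by -0.09 ± 0.11. Gapdh, the glyceraldehyde phosphate dehydrogenase often used as a loading control, lay at 0.790, 0.814 and 0.725 on the anti-miR-335 arrays, against 1.09, 1.24 and 0.848 on the control arrays (log2 difference -0.43 ± 0.22, adjusted p = 0.601). The groups did not overlap, but this probe lay close to background, and the second Gapdh probe was not above background on any array. The annotation ties neither probe to a RefSeq transcript.

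Pkm, the pyruvate kinase of muscle and most growing cells, was the member that varied most. It lay at 31.1, 40.3 and 11.5 on the anti-miR-335 arrays, against 13.9, 36.3 and 32.8 on the control arrays. Anti-miR-335 replicate 3 and control replicate 1 were low and the other 4 arrays high, so that the group means, 27.6 ± 14.7 and 27.7 ± 12.02 (SD, n = 3 each), nearly coincided. The log2 difference was -0.07 ± 0.45 (SE, adjusted p = 0.978 by limma). Leaving out anti-miR-335 replicate 3 gave 0.48, and leaving out control replicate 1 gave -0.50. The highest array exceeded the lowest 3.52-fold for Pkm, against a median of 1.39-fold over the 32 members above background. The same 2 arrays were the lowest for Olig1, a transcription factor of the oligodendrocyte lineage, which lay at 18.6, 26.8 and 1.61 on the anti-miR-335 arrays, against 1.93, 24.3 and 25.9 on the control arrays. They were also the lowest for Olig2. The other 3 markers of that lineage shared this only in part. Sox10 was lowest on control replicate 1 (2.31) but highest on anti-miR-335 replicate 3. Cspg4 was lowest on anti-miR-335 replicate 3 (2.46), while control replicate 1 lay within the range of the other arrays. Mbp was lowest on control replicate 1 (0.633), but on anti-miR-335 replicate 3 it lay above anti-miR-335 replicate 1. Outside that lineage, the same 2 arrays were the lowest for the precursor marker Sox2 (26.8 and 22.1). They were also the lowest for Gaa (3.51 and 4.21), from the further glycogen genes. What those 2 arrays share was not tested.

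Lactate is made by lactate dehydrogenase and leaves through the monocarboxylate transporters. All 4 measured members had positive differences, from 0.05 to 0.36, and 0 passed. Ldha, the lactate-forming subunit, lay at 42.8, 48.5 and 45.2 on the anti-miR-335 arrays, against 48.8, 40.0 and 37.1 on the control arrays (log2 difference 0.12 ± 0.12, adjusted p = 0.807), and its second probe was not above background on any array. Slc16a1, the transporter MCT1, lay at 2.70, 2.97 and 3.52 against 3.58, 2.25 and 1.66 (0.36 ± 0.24, adjusted p = 0.692). In both genes control replicate 1 was the highest of the 6 arrays and control replicate 3 the lowest. Ldhb differed by 0.05 ± 0.12, and Slc16a3, the lactate exporter MCT4, by 0.05 ± 0.18 on its brighter probe and -0.07 ± 0.27 on the other.

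The pyruvate dehydrogenase kinases switch off the oxidation of pyruvate. Pdk1, the HIF-induced kinase, lay at 2.06, 2.37 and 2.12 on the anti-miR-335 arrays, against 2.54, 2.25 and 2.35 on the control arrays (log2 difference -0.13 ± 0.14, adjusted p = 0.819). Pdk2 and Pdk3 differed by 0.00 ± 0.15 and 0.04 ± 0.15. Pdha1, the enzyme's own alpha subunit, was above background on 1 anti-miR-335 array and 1 control array. Each of the 3 kinases differed by less than its SE.

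Of 33 further glycolysis, gluconeogenesis and pyruvate genes on such a list, 23 were measured, with 19 positive, 4 negative and 0 past the test. Over all genes 57.4% were positive. The positive Ldhc, Gapdhs and Fbp2 and the negative Pgam2 were above background on at most 1 array and give no direction. Bpgm, which makes 2,3-bisphosphoglycerate, lay at 5.40, 6.28 and 5.58 on the anti-miR-335 arrays, against 4.0, 4.93 and 4.04 on the control arrays (log2 difference 0.42 ± 0.13, adjusted p = 0.447). Dld, the dihydrolipoamide dehydrogenase shared by the pyruvate dehydrogenase complex, lay at 25.2, 29.1 and 24.6 against 22.0, 20.2 and 21.9 (0.29 ± 0.11, adjusted p = 0.488). In both genes, named for their small p, every anti-miR-335 array exceeded every control array, control replicate 1 included. The same held for 9.35% of all genes. Eno3, the muscle enolase, differed by 0.26 ± 0.13. Of 7 genes of the pentose phosphate branch, 5 were measured, 4 positive and 1 negative, with 0 past the test. Rpe differed by 0.56 ± 0.24, and by 0.85 without control replicate 1 (adjusted p = 0.0285). Tkt differed by 0.23 ± 0.12, Pgls by 0.28 ± 0.14 and Taldo1 by 0.10 ± 0.13.

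**Figure D3:**
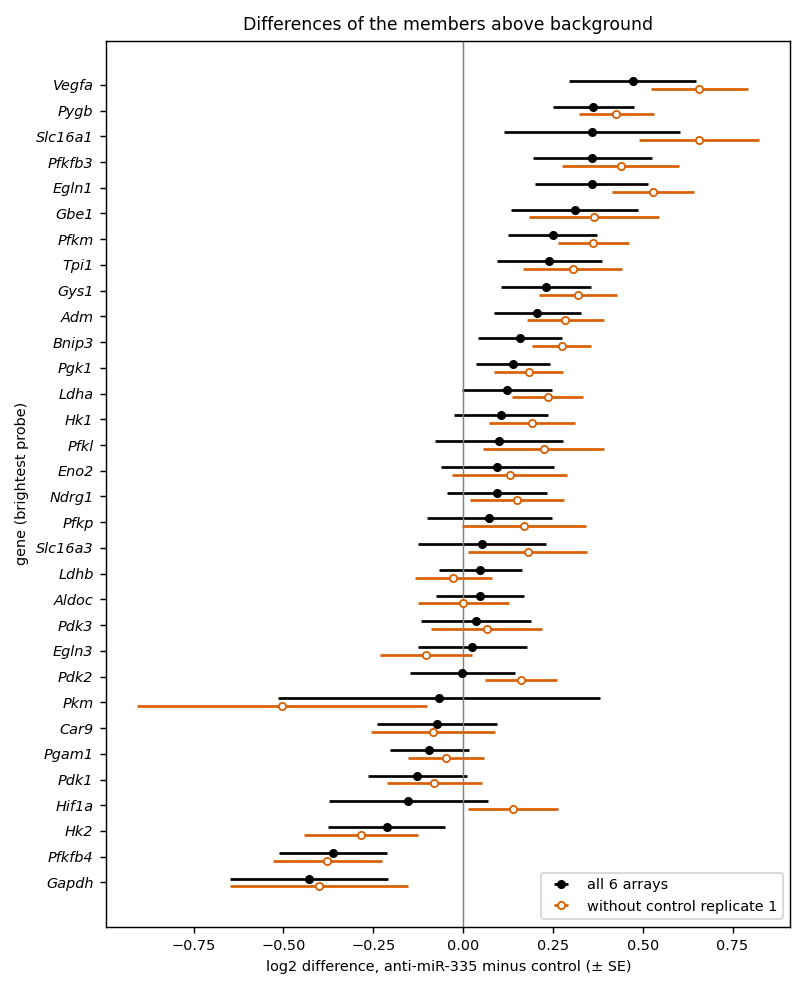
Log2 difference, anti-miR-335 minus control, with its SE for the 32 members above background, from all 6 arrays (filled) and without control replicate 1 (open). Vegfa reaches 0.66 and Egln1 0.53 without that array, Hif1a lies at 0.14 without it and at -0.15 with it, and Pfkfb4 and Gapdh stay below 0 in both.

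In much of the list control replicate 1 lay higher than the other controls, on the side of the anti-miR-335 group. It lay above both other controls for 24 of the 32 members above background and below both for 7, that is 75.0% and 21.9%, against 53.0% and 29.1% of all 12169 genes above background with values on all arrays. Relative to the mean of control replicates 2 and 3, the 32 members had a median of 0.04, 0.31 and 0.22 (log2) on anti-miR-335 replicates 1, 2 and 3 and of 0.19 on control replicate 1. All genes above background had 0.06, 0.16 and 0.10 on the anti-miR-335 arrays and 0.11 on control replicate 1. In both sets anti-miR-335 replicate 1 lay nearest to control replicates 2 and 3. Control replicate 1 lay between anti-miR-335 replicates 1 and 3 over the members, and between replicates 3 and 2 over all genes. Anti-miR-335 replicate 2 was the highest array for 13 of the 32 members, where it was the highest for 25.0% of all genes. Control replicate 1 was the highest for 8, where it was the highest for 27.2%. Control replicate 3 was the lowest for 13, where it was the lowest for 27.5%. What sets the replicate 1 arrays apart was not tested.

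**Figure D4:**
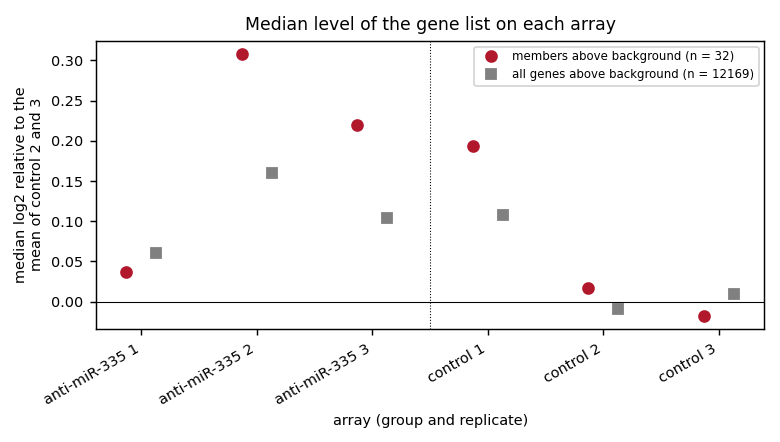
Median log2 intensity relative to the mean of control replicates 2 and 3, for the 32 members above background (circles) and all 12169 genes above background (squares), on each array. The members reach 0.31 on anti-miR-335 replicate 2 and lie at 0.19 on control replicate 1 but at 0.04 on anti-miR-335 replicate 1.

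HIF factors bind a short core sequence. The 250 bases before the RefSeq start sites of the members (GRCm38.p6) were searched for its form ACGTG on either strand. The other strand reads CACGT. This form is called the element here. Other forms of the core were not searched, so a promoter without a match may still hold one. Where the element lies within the palindrome CACGTG, an E-box that other factors bind, both readings count and overlap. A promoter was found for 38 of the 41 genes, 53 start sites in all. The element was present before 47.2% of these starts, against 17.8% of the 21263 starts of all protein-coding genes. Counted by gene, 57.9% of the 38 members had it before at least 1 start, against 20.0% of protein-coding genes. The member promoters also had more G and C, with a median of 60.4%, against 55.6% for all protein-coding genes. CACGTG was present before 13.2% and 6.63% of the starts. The list holds genes chosen as hypoxia targets. Its shares therefore describe that choice and are no result of these arrays. Matches are letters in a window and not shown to be bound.

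The promoters of the 4 members with an unadjusted p under 0.05 are shown, each at its first listed start, with the element in capitals, 5′ to 3′ on the gene's strand and ending at the base before the start. Pygb lies at chr2:150786546-150786795 (plus strand), with the element beginning at position -163, and Egln1 at chr8:124949255-124949504 (minus strand), with the element beginning at position -68, where -1 is the base before the start. Vegfa lies at chr17:46032378-46032627 (minus strand) and Pfkfb4 at chr9:108991652-108991901 (plus strand), both without a match. Vegfa has a second listed start, not shown, with the window chr17:46025164-46025413, where the element begins at position -211. On the minus strand this window lies downstream of the first listed start, so that match does not lie before the first start.
Pygb: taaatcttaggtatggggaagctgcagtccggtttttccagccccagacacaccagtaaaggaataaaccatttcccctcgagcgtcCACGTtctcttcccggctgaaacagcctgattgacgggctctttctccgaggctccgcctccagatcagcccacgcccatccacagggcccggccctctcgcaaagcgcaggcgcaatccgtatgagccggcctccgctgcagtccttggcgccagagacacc
Egln1: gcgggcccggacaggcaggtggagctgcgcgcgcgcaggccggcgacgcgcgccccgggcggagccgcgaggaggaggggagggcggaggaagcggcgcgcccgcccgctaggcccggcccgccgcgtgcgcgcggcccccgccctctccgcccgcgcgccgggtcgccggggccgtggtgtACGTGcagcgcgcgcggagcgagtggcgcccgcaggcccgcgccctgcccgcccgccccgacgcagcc
Vegfa: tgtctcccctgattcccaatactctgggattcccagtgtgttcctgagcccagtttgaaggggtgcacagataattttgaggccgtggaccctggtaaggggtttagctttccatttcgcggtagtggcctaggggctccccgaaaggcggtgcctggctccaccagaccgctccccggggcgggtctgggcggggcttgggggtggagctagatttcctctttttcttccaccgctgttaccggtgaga
Pfkfb4: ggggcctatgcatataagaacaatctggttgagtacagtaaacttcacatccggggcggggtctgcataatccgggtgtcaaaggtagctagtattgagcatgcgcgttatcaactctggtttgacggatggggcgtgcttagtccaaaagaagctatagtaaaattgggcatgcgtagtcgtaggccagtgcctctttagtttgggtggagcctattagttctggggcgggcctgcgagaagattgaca
Pygb and Egln1 thus hold the element as ACGTG, and Vegfa holds it only before its second listed start, downstream of the first. Pfkfb4 has no match to ACGTG, and other forms were not searched. Whether the element bears on the differences of these genes was not tested. Of the other members, Pfkm, Pfkfb3, Ldha, Slc16a1, Pdk2, Hif1a and Bnip3 hold it within CACGTG before at least 1 start. Slc2a1, Hk2, Aldoa, Pgk1, Pgam1, Pkm, Slc16a3, Pdk3, Pygl, Egln3, Car9 and Ankrd37 hold it outside that palindrome. The rest, Hk1, Gpi1, Pfkl, Pfkp, Aldoc, Tpi1, Gapdh, Eno1, Eno2, Ldhb, Pdha1, Pdk1, Gys1, Gbe1 and Adm, have no match in these windows. In Pfkm, Ldha, Pdk2, Aldoa and Pkm, as in Vegfa, some listed starts have no match.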

How the data were processed

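RNA levels were measured on 6 single-colour arrays, 3 anti-miR-335 and 3 control. The intensities deposited by the authors were divided by each array's median, per the labels. The scanner software was CodeLink Expression Analysis 4.1.0.29054, per the file headers of the replicate 1 arrays, the 2 whose scanner output was used. There, all 35976 (control) and 36032 (anti-miR-335) deposited intensities equalled the scanner's normalized intensity within 0.0001, and the raw intensity was the spot mean minus the local background. Slides could not be tested as batches.

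Control spots were left out of the tests. Background was taken from the negative control spots of each array, with a limit 3 scaled median absolute deviations over their median. Low intensities were set to 0.163, the 5th percentile of positive values, before taking log2. The comparison used limma 3.58.1 (R 4.3.3; a linear model per probe without covariates, and eBayes with its prior variance following intensity), on 34847 probes that had 2 or more values in each group. The scripts were tested on simulated data. Of the gene probes, 21615 had 1 symbol, 681 several and 12671 none. Of the single-symbol probes, 21487 had a gene identifier found in RefSeq (GRCm38.p6), which changed 0 symbols.

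Values of every array are printed for members whose groups do not overlap or whose unadjusted p is under 0.05, for 12 listed genes, and for others named after their values were seen. From each list of further pathway genes, up to 4 of smallest p are named. Members and lists were chosen with earlier results of these data known. Alternatives covered the normalization, the floor, dim probes, array weights, the intensity trend, the replicate block, a batch term for replicate 1, the mean of a gene's probes, left-out arrays or pairs, and normexp background correction.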

Additional observations from a re-analysis of the deposited data

How the results depend on the processing

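The number of arrays, 3 per group, limits the precision. The count of probes past the threshold, 0, was 1 after quantile normalization and 474 when arrays were weighted. With arrays or pairs left out it ranged from 0 to 1571. It was 1571 with the replicate 1 pair left out, 1100 with control replicate 1 left out, 1 with anti-miR-335 replicate 1 left out and 0 in the remaining 6 cases. The count of members past it, 0, ranged from 0 to 2 over those cases. Vegfa and Egln1 passed with control replicate 1 left out, and Vegfa (0.76, log2) and Gys1 with its pair left out. It was 0 in the remaining 7 cases and under every other alternative run. The replicate block left 0 probes and 0 members past the threshold. For each replicate number, the anti-miR-335 and control arrays were compared by how far each probe lay from its group mean. Over 17843 probes above background, the correlations were -0.23, 0.04 and -0.26 for numbers 1, 2 and 3. With 3 arrays per group, these values cannot decide whether such pairs share more than a number. The median over the members, 0.07, lay between 0.051 and 0.22 with arrays or pairs left out, the highest without the replicate 1 pair, and between 0.04 and 0.14 otherwise. On the replicate 1 pair alone it was -0.14 from the deposited intensities and -0.09 after normexp. With arrays or pairs left out, Vegfa ranged from 0.22 to 0.76, Egln1 from 0.18 to 0.54 and Gys1 from 0.11 to 0.42. Of 18 named probes, 13 kept their direction in every alternative that could be run for them. Hif1a gave 0.031 when arrays were weighted and between -0.38 and 0.19 with arrays or pairs left out. Over the same cases Pkm ranged from -0.68 to 0.66, Pfkp from -0.12 to 0.37 and Slc2a1, not above background, from -0.80 to 0.24. The second Ldha probe, not above background, gave 0.20 at the 20th percentile floor, 0.014 when arrays were weighted and between -0.68 and 0.31 with arrays or pairs left out. Differences between values not above background give no direction for Slc2a1 or this Ldha probe. The cause was not tested.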
